A study of Mus musculus with 6 samples.

Results

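Satellite glia genes are described here by 10 members, Fabp7, Cdh19, Apoe, Sox10, Sox2, Sox3, Glul, Gja1, Ednrb and Erbb3, out of 17524 genes in the deposited table. They were found in it by symbol, and all 10 were present and passed the filter on low values. The members were chosen by their measured NTG and vehicle levels as well as by their known place in these cells. Their fold changes are therefore given as a description, with no p-value, and a member past or short of the threshold of the fit across all genes describes these libraries and tests nothing about the members. The tissue was the trigeminal ganglion of wild-type (WT) mice. Messenger RNA was sequenced in bulk from 3 libraries of the NTG group and 3 of the vehicle group, and both groups carried the same genotype. The labels give no strain, age, dose, time or route, and they do not say whether a library is 1 animal or a pool. NTG is given only as an abbreviation, which in mouse migraine work usually means nitroglycerin, a nitric oxide donor.

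Satellite glial cells form a thin sheath around the cell body of each sensory neuron in a ganglion. They arise from the neural crest under the transcription factor SOX10 and keep the neuregulin receptor ErbB3 on their surface. They take up glutamate and turn it into glutamine with glutamine synthetase, buffer potassium, carry lipid on apolipoprotein E, and are joined to one another by gap junctions of connexin 43. Several of these genes are also used by Schwann cells, by astrocytes or, in the case of Apoe, by macrophages. In bulk tissue, fewer satellite glia and less RNA per cell cannot be told apart.

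Promoter sequences are shown for Sox2, Fabp7 and Apoe, the lower members with a window in the RefSeq promoter table (GRCm38.p6), because their NTG values lay below all vehicle values and their transcripts differ in base composition. Each runs 5′ to 3′ from 250 bases before to 50 bases after an annotated transcript start, and capitals mark the SOX core letters ACAATG or ACAAAG on either strand. Of the 10 members, 6 had such a window (8 windows in all), and Sox10, Sox3, Erbb3 and Cdh19 are given by name only. The Apoe sequence is the furthest upstream of its windows.
Promoter, Sox2, chr3:34649745-34650044, plus strand: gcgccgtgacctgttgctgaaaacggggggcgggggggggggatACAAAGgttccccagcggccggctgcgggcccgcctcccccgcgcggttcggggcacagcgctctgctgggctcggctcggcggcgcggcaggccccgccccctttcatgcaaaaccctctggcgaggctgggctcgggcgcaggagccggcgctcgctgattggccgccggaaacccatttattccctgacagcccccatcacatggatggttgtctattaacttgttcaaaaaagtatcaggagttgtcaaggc
Promoter, Fabp7, chr10:57784673-57784972, plus strand: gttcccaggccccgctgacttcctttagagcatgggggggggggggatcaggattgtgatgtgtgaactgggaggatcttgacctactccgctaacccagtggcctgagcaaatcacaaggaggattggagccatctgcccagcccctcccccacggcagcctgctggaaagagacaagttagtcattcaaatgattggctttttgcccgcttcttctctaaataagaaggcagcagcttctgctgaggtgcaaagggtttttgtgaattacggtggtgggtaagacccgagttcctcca
Promoter, Apoe, chr7:19699139-19699438, minus strand: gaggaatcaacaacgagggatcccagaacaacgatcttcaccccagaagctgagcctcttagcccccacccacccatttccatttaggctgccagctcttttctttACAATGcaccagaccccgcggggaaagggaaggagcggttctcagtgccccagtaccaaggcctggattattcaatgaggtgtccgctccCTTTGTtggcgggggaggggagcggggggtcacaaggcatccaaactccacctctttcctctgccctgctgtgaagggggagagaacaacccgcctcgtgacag
The Sox2 window held ACAAAG once, at position -206 from the start, and the Apoe window held ACAATG at -144 and ACAAAG at -54. Neither form was in the Fabp7 window or in the Apoe windows not shown. Among all 32851 windows, 12.6% held ACAATG and 18.7% held ACAAAG, so a match is common. The GC content of the windows was 66.3% for Sox2, 57.7% for Apoe and 54.0% for Fabp7, against a median of 52.7% over all windows.

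The NTG libraries held between 19248592 and 23774244 reads and the vehicle libraries between 18813027 and 20191300. Gene positions come from the deposited table (GRCm38). Values below are normalised reads, the deposited gene counts divided by a size factor, and fold changes are log2 differences of value + 1 with a standard error (SE). A property of the libraries moved with treatment across the whole table. The slope of a library's log2 deviation from the gene means over transcript GC content, per 10 percentage points, was -0.217, -0.169 and -0.0793 in the NTG libraries, against 0.111, 0.190 and 0.165 in the vehicle libraries. Relative to vehicle, NTG values were thus lower the richer a transcript was in GC, and library composition and treatment cannot be told apart by design. Each member is therefore given a second time with the smooth dependence of a library's values on GC content and transcript length taken out.

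In short, the transcription factor genes and the lipid carriers were lower in NTG ganglia, the adhesion gene Cdh19 was higher, Ednrb and Glul were higher by small margins, and Erbb3 and Gja1 overlapped between the groups. At an adjusted p under 0.05 in limma across all genes, 3 of the 10 members were higher in NTG (Cdh19, Ednrb and Glul), where 12.3% of all genes tested were called higher. A further 5 were lower (Sox10, Sox2, Sox3, Fabp7 and Apoe), where 13.5% of all genes were called lower. Erbb3 and Gja1 did not pass. After removal of the GC and length trend, Cdh19 was the 1 member called higher, beside 3.47% of all genes, and Sox2, Sox3 and Fabp7 were called lower, beside 5.5%. This contrast helped to choose the members, so nothing is read from these counts. The groups did not overlap for 8 of the 10 members, nor for 39.7% of all genes tested.

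**Figure D1:**
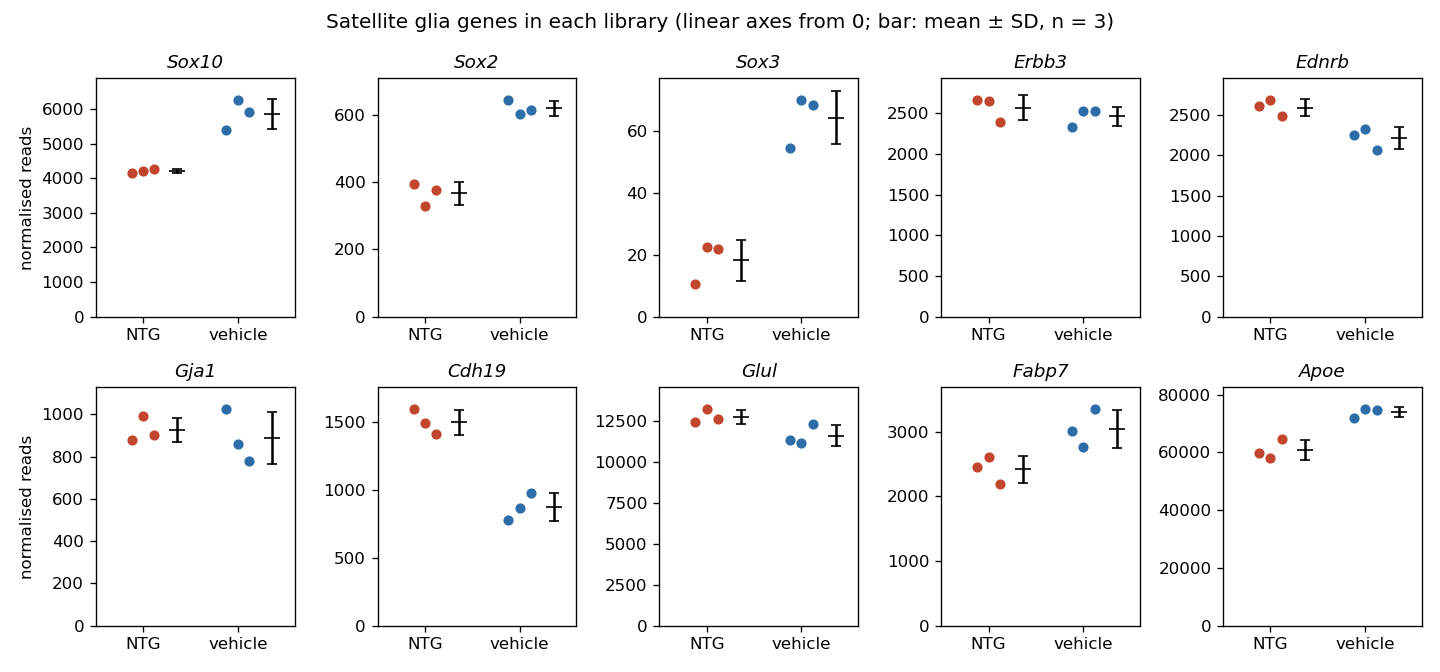
Normalised reads (y axis, linear from 0, a scale of its own for each gene) of the 10 satellite glia genes in each library, NTG on the left of vehicle; points are libraries and bars the mean ± SD (n = 3). NTG points lie wholly below the vehicle points for Sox10, Sox2, Sox3, Fabp7 and Apoe, wholly above them for Cdh19, Ednrb and Glul, and the groups overlap for Erbb3 and Gja1.

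Sox10 (chr15:79154913-79164490, minus strand) encodes the factor that sets and keeps the glial fate of neural crest cells. It had 4147, 4201 and 4259 normalised reads in NTG libraries, against 5404, 6257 and 5911 in vehicle libraries. Every NTG library was below every vehicle library, and the NTG libraries lay close together. The means were 4202 ± 55.6 in NTG and 5857 ± 429 in vehicle (SD, n = 3 each), a log2 fold change of -0.48 ± 0.057 (SE). The Sox10 transcript is 61.8% GC, and the median log2 fold change of the 348 protein-coding genes within 1 point of that content was -0.38. With the GC and length trend removed, the Sox10 difference was -0.12 ± 0.048. On that scale its log2 values were 12.14 to 12.27 in NTG and 12.28 to 12.39 in vehicle, without overlap but not past the threshold.

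Sox2 (chr3:34649995-34652461, plus strand), a factor of neural progenitors that is kept on in satellite glia, had 395, 329.6 and 376 normalised reads in NTG libraries, against 644, 601 and 615 in vehicle libraries. The groups were far apart, with means of 367 ± 33.7 in NTG and 619.9 ± 21.9 in vehicle (SD, n = 3 each). The log2 fold change was -0.76 ± 0.096 (SE), and the difference was -0.78 ± 0.092 after the trend was removed. Its transcript has a middling GC content of 50.5%, where 1583 genes of like content had a median of 0.02. Sox2 lies within the long non-coding gene Sox2ot on the same strand, so reads in the shared stretch cannot be assigned with certainty. Sox2ot itself had 443 ± 30.4 normalised reads in NTG and 435 ± 5.31 in vehicle (SD, n = 3 each), with overlapping groups. The Sox2ot log2 fold change was 0.02 ± 0.095 (SE), and -0.19 ± 0.096 after the trend was removed, and it did not pass in either. The ratio of Sox2ot to Sox2 was 1.21 ± 0.089 in NTG and 0.702 ± 0.021 in vehicle, a log2 difference of 0.78, or 0.59 with the trend removed.

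Sox3 (chrX:60891366-60893430, minus strand), a close relative of Sox2 on the X chromosome, was the least abundant member. It had 10.5, 22.4 and 21.7 normalised reads in NTG libraries, against 54.5, 70.0 and 68.3 in vehicle libraries. These rest on 10, 21 and 25 whole reads in NTG and 50, 68 and 62 in vehicle. The groups did not overlap even at this depth, and NTG replicate 1 was the lowest. The log2 fold change was -1.83 ± 0.33 (SE). Sox3 is the most GC-rich member at 66.4%, and only 36 protein-coding genes had a like content, with a median of -0.61. After the trend was removed the difference was -1.31 ± 0.325, and it lay at -0.998, short of the threshold, without NTG replicate 1.

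Ratios within a library show how the SOX members stood to one another. The ratio of Sox2 to Sox10 was 0.0873 ± 0.0084 in NTG and 0.106 ± 0.012 in vehicle (SD, n = 3 each), a log2 difference of -0.28, or -0.66 with the trend removed. The ratio of Sox3 to Sox2 was 0.0507 ± 0.022 in NTG and 0.104 ± 0.017 in vehicle, a log2 difference of -1.13, or -0.53 with the trend removed. The list of other SOX genes was written with earlier results of these data known. Of its 16 genes 13 were tested in limma, 5 fell and 8 did not pass, where 13.5% of all genes were called lower. The list's median log2 fold change was -0.41 beside 0.00 over all genes. The 5 that fell were Sox4, Sox8, Sox9, Sox12 and Sox13. After the trend was removed 3 of the 13 (Sox4, Sox9 and Sox12) were still lower, beside 5.5% of all genes, and the list's median was -0.27. Sox12, a SoxC factor, had 649 ± 90.4 normalised reads in NTG and 948 ± 23.8 in vehicle (log2 fold change -0.56, limma adjusted p = 0.000158, and -0.27 with adjusted p = 0.0403 after removal). Sox8, the SoxE partner of Sox10, had 371 ± 11.1 in NTG and 493 ± 24.1 in vehicle (log2 fold change -0.41, limma adjusted p = 0.00298), but its adjusted p was 0.0528 after removal. Sox13 had a log2 fold change of -0.46 (limma adjusted p = 0.00115), and -0.14 with adjusted p = 0.417 after removal. Sox9, chosen after its values were seen, had 127 ± 6.84 in NTG and 185 ± 27.2 in vehicle.

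Notch signalling maintains progenitor and glial states in the developing nervous system. Of its 19 listed genes, 1 rose and 9 fell, with a median log2 fold change of -0.36. Over all genes tested, 12.3% were called higher and 13.5% lower. The 1 that rose was Rbpj, which encodes the DNA-binding partner of the Notch receptors (0.37, and 0.16 after removal). After the trend was removed 2 fell and the rest did not pass, with a median of -0.15. Those 2 were the receptor Notch1 and the feedback inhibitor Nrarp. Notch1 had 1067 ± 87.4 normalised reads in NTG and 1512 ± 145 in vehicle (log2 fold change -0.50, limma adjusted p = 0.000126, and -0.32 with adjusted p = 0.00232 after removal). Nrarp had a log2 fold change of -0.46 (limma adjusted p = 0.00148), and -0.33 with adjusted p = 0.0204 after removal. The ligand Jag2 had -0.36 (limma adjusted p = 0.00281) and did not pass after removal, at 0.00 with adjusted p = 0.989.

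Erbb3 (chr10:128567523-128589635, minus strand), the receptor through which glia of the neural crest answer axonal neuregulin, had 2665, 2652 and 2389 normalised reads in NTG libraries, against 2328, 2532 and 2528 in vehicle libraries. The groups overlapped. Its log2 fold change was 0.06 ± 0.063 (SE) and did not move when the trend was removed (0.06 ± 0.057). The ratio of Erbb3 to Sox10 normalised reads was 0.612 ± 0.044 in NTG and 0.421 ± 0.014 in vehicle (SD, n = 3 each), a log2 difference of 0.54 that became 0.18 with the trend removed. In the neuregulin and ErbB list, 16 of 18 genes were tested, 2 rose and the others did not pass, with a median of 0.02. Those 2 were the ligand Nrg1 (0.18, limma adjusted p = 0.0361) and the sheddase Adam17 (0.26, limma adjusted p = 0.0429), but after removal limma called 0 of the 16 (2 lower at an unadjusted p under 0.05), and Nrg1 stood at -0.05. On the recovered reads, without removal, edgeR called 3 higher and DESeq2 called 1.

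Ednrb (chr14:103814615-103844508, minus strand) encodes the endothelin B receptor, which glia of sensory ganglia carry. It had 2609.6, 2687 and 2485 normalised reads in NTG libraries, against 2247, 2326 and 2067 in vehicle libraries. The NTG libraries were all above the vehicle libraries, by a small margin. The log2 fold change was 0.23 ± 0.062 (SE), close to the median of 0.21 of the 1300 genes of like GC content. With the trend removed it was 0.03 ± 0.057 and the groups overlapped. Ednrb missed the threshold without NTG replicate 2 (0.20) and without vehicle replicate 3 (0.18). Of 7 listed endothelin genes 6 were tested, and limma, edgeR and DESeq2 each called 0 of them (1 lower at an unadjusted p under 0.05 in limma), with 0 after removal in limma at either level. The most abundant, the converting enzyme Ece1, had a log2 fold change of -0.15 (limma adjusted p = 0.0822).

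Gja1 (chr10:56377300-56390419, plus strand) encodes connexin 43, the channel of the gap junctions between satellite glia. It had 881, 991 and 904 normalised reads in NTG libraries, against 1025, 860.5 and 781 in vehicle libraries. All NTG values lay inside the vehicle range. Its log2 fold change was 0.07 ± 0.090 (SE), and -0.10 ± 0.081 after the trend was removed. Its sign changed without vehicle replicate 3 even before removal (-0.02), and without the other libraries in turn it reached up to 0.17. Of the other connexin, pannexin and scaffold genes, 12 of 23 were tested, 2 rose (Tjp1 and Gjc3) and 2 fell, with a median of -0.16. The scaffold gene Tjp1, whose protein ZO-1 binds connexin 43, had 2289 ± 155 normalised reads in NTG and 1814 ± 142 in vehicle (log2 fold change 0.34, limma adjusted p = 0.0013), and it was the 1 gene of the list called after removal (0.20, adjusted p = 0.0363). Panx2, a large-pore channel gene, had 2606 ± 245 in NTG and 3523 ± 278 in vehicle (log2 fold change -0.44, limma adjusted p = 0.000208), and -0.05 with adjusted p = 0.608 after removal.

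Cdh19 (chr1:110888002-110977601, minus strand), a type II cadherin of neural crest glia and Schwann cell precursors, was the member that was higher by the most. It had 1594, 1489.9 and 1409.7 normalised reads in NTG libraries, against 775, 865 and 976 in vehicle libraries. All NTG libraries stood well above the highest vehicle library, with means of 1498 ± 92.6 in NTG and 872 ± 100.8 in vehicle (SD, n = 3 each). This was a log2 fold change of 0.78 ± 0.082 (SE). Cdh19 is also the member lowest in GC, at 37.4%, where the 200 genes of like content had a median of 0.40, and 92.0% of them had a lower fold change than Cdh19. With the trend removed the difference was 0.42 ± 0.076, the groups stayed apart at log2 values of 10.34 to 10.40 in NTG and 9.75 to 10.09 in vehicle, and the range without each library was 0.32 to 0.49. Among other cadherins and catenins, 23 of 25 were tested, 4 rose (Cdh8, Cdh10, Ctnnb1 and Ctnnd1) and 19 did not pass, with a median of 0.13. After removal limma called 0 of the 23, with 4 higher and 2 lower at an unadjusted p under 0.05. Cdh10 had 357 ± 23.9 normalised reads in NTG and 259 ± 24.9 in vehicle (log2 fold change 0.47, limma adjusted p = 0.00498), and 0.25 with adjusted p = 0.191 after removal. Ctnnd1, which encodes p120 catenin, had 0.21 (limma adjusted p = 0.0101), and Ctnnb1, which encodes beta-catenin, had 0.14 (limma adjusted p = 0.0297).

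Glul (chr1:153899929-153909723, plus strand) encodes glutamine synthetase, the enzyme by which satellite glia are commonly recognised. It had 12408, 13227 and 12635 normalised reads in NTG libraries, against 11348, 11133 and 12342 in vehicle libraries. The lowest NTG library was just above the highest vehicle library. The log2 fold change of 0.14 ± 0.050 (SE) was the smallest among the members called, and it became 0.08 ± 0.047, with overlapping groups, after the trend was removed. Glul missed the threshold without NTG replicate 2, without NTG replicate 3, without vehicle replicate 1 and without vehicle replicate 2, with values from 0.11 to 0.18 over all omissions. Of the 18 other genes of glutamate uptake and the glutamine cycle, 3 rose (Slc38a2, Slc17a6 and Asns) and 1 fell (Slc17a7), with a median of 0.06. Slc38a2, a glutamine transporter, had 7927 ± 470.4 normalised reads in NTG and 6592 ± 84.3 in vehicle (log2 fold change 0.26, limma adjusted p = 0.000904, and 0.06 with adjusted p = 0.431 after removal). Slc17a6, the vesicular glutamate transporter of the neurons, had 0.26 (limma adjusted p = 0.000953) and Asns, asparagine synthetase, 0.23 (limma adjusted p = 0.00383). After removal 3 of the 18 rose and 1 fell, but those that rose were Slc1a5, Got1 and Got2, none of which had been called before.

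Fabp7 (chr10:57784923-57788450, plus strand), the brain-type fatty acid binding protein and a marker of satellite glia, had 2459.8, 2604 and 2190.0 normalised reads in NTG libraries, against 3019, 2766 and 3352 in vehicle libraries. All NTG libraries were below the vehicle libraries. The means were 2418 ± 210.3 in NTG and 3046 ± 294 in vehicle (SD, n = 3 each), a log2 fold change of -0.33 ± 0.074 (SE). Fabp7 ran against its base composition. Its transcript is 42.6% GC, the 1082 genes of like content had a median of 0.23, and 3.79% of them had a lower fold change than Fabp7. With the trend removed the difference widened to -0.55 ± 0.071, and the range without each library was -0.62 to -0.47. Fabp7 and Cdh19, both poor in GC, thus lay on opposite sides of genes of like content. The ratio of Fabp7 to Cdh19 was 1.54, 1.75 and 1.55 in NTG libraries, against 3.90, 3.20 and 3.43 in vehicle libraries, a log2 difference of -1.12 that stayed at -0.97 with the trend removed.

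Of the other intracellular lipid-binding proteins, 7 of 13 were tested, 2 rose and 1 fell, with a median of -0.07. Fabp3, the heart-type family member, had 952 ± 21.5 normalised reads in NTG and 812 ± 35.4 in vehicle (log2 fold change 0.23, limma adjusted p = 0.0243, and 0.36 with adjusted p = 0.0014 after removal). Its direction was opposite to that of Fabp7. Fabp5, the epidermal type, had 0.19 (limma adjusted p = 0.0347) and was not called after removal.

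Apoe (chr7:19696244-19701310, minus strand), the lipid carrier secreted by glia and macrophages, was the most abundant member. It had 59667, 57912 and 64642 normalised reads in NTG libraries, against 71946, 74983 and 74733 in vehicle libraries. The groups were separate, with means of 60740.5 ± 3491 in NTG and 73887 ± 1686 in vehicle (SD, n = 3 each). This gave a log2 fold change of -0.28 ± 0.042 (SE). Its transcript is 59.5% GC, the 828 genes of like content had a median of -0.27, and the difference was -0.02 ± 0.029 with the trend removed, when the groups overlapped. The ratio of Fabp7 to Apoe was 0.0400 ± 0.0056 in NTG and 0.0412 ± 0.0040 in vehicle (SD, n = 3 each), a log2 difference of -0.05, but -0.53 with the trend removed. The ratio of Glul to Apoe was 0.211 ± 0.017 in NTG and 0.157 ± 0.0084 in vehicle, a log2 difference of 0.42, but 0.10 with the trend removed.

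Among other apolipoprotein and lipoprotein genes, 20 of 25 were tested, 1 rose and 5 fell, with a median of -0.05. Vldlr, a receptor for apolipoprotein E, had 1265 ± 46.3 normalised reads in NTG and 895 ± 33.7 in vehicle (log2 fold change 0.50, limma adjusted p = 4.2e-05, and 0.28 with adjusted p = 0.00611 after removal). Nr1h2, which encodes the sterol sensor LXR beta, had -0.23 (limma adjusted p = 0.00662), and 0.08 with adjusted p = 0.444 after removal. NTG replicate 1 stood apart for several apolipoprotein and lipid-binding genes, of which Apoa1, Apoa2 and Fabp1, chosen after their values were seen, are examples and not the highest. Apoa1 had 185 normalised reads and Fabp1 59.7 in that library, and both were at 0 in the other libraries. Apoa2 had 370 normalised reads there and between 6.18 and 13.9 in the others. The Apoe value of NTG replicate 1 lay between those of the other NTG libraries, and the Apoe difference without each library in turn ran from -0.33 to -0.25. Without NTG replicate 1, 3 members were called higher and 5 lower, the counts found with it. In that fit 1458 of all 17475 genes tested were called higher and 1623 lower, against 2148 and 2364 with it. After removal of the GC and length trend, however, Sox3 was short of the threshold without that library.

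**Figure D2:**
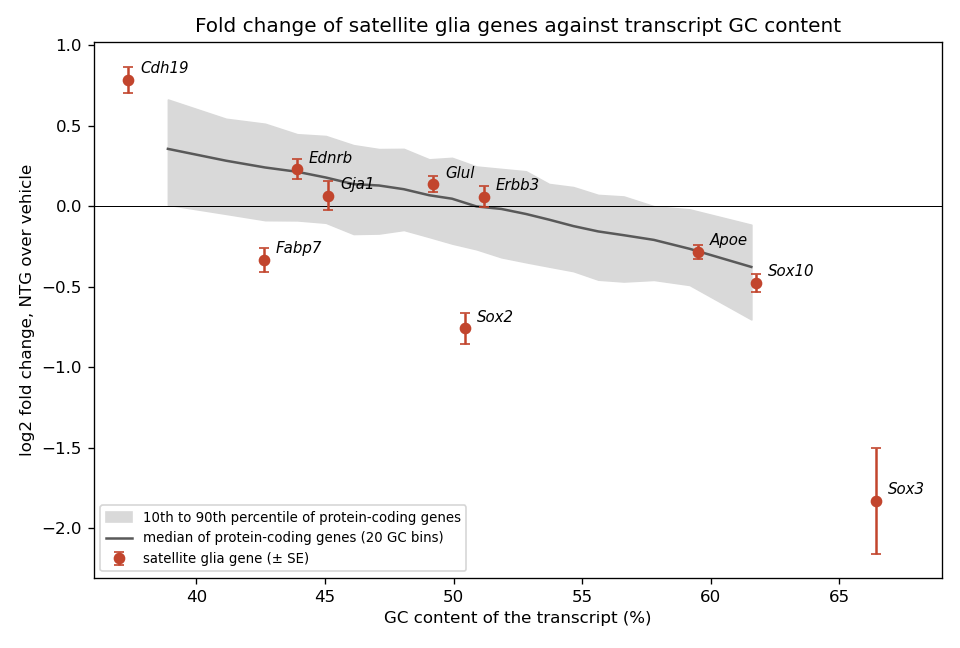
Log2 fold change (y axis, NTG over vehicle, ± SE) of the 10 satellite glia genes against the GC content of their transcript in percent (x axis); the line is the median and the band the 10th to 90th percentile of protein-coding genes in 20 bins of GC content. Apoe, Sox10 (just past its end) and Ednrb lie near the line, Sox2 and Fabp7 lie below the band, and Sox3 and Cdh19 lie beyond the centres of the outermost bins.

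**Figure D3:**
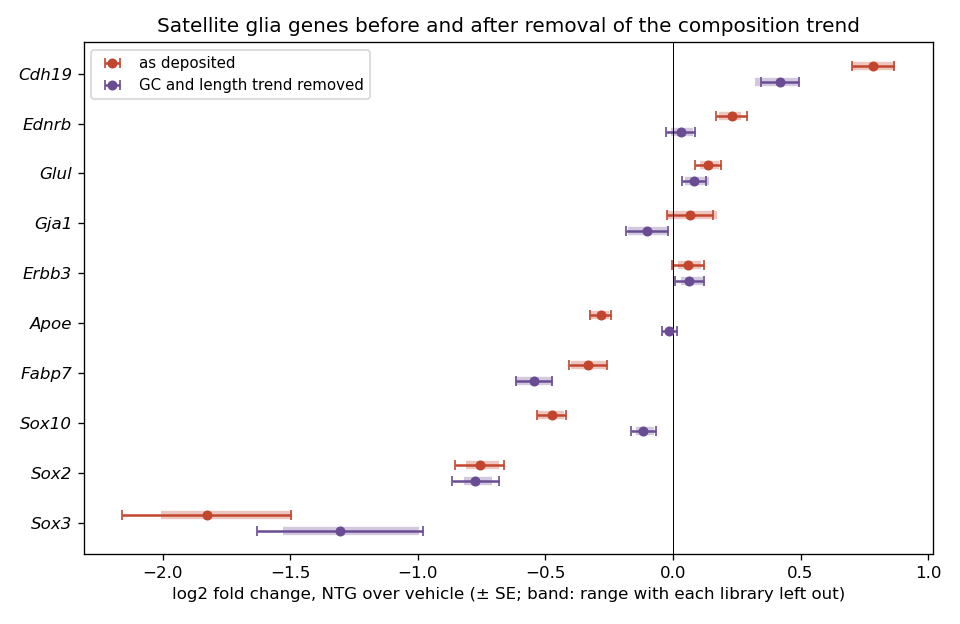
Log2 fold change (x axis, NTG over vehicle, ± SE) of each satellite glia gene as deposited and after removal of each library's trend over GC content and length; pale bands give the range with each library left out in turn. Sox10 and Apoe move towards 0 (-0.12 and -0.02), Sox2 stays (-0.78), Fabp7 moves away from 0 (-0.55) and Cdh19 moves to 0.42.

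Levels of different genes were compared per kilobase of transcript. Over both groups the order began with Apoe, Glul, Fabp7, Sox10, Ednrb and Erbb3, and Sox3 was last. Apoe had 43139.6 ± 2479.6 normalised reads per kilobase in NTG and 52477 ± 1197 in vehicle (SD, n = 3 each), which was 9.44 times the level of Glul in NTG and 12.6 times in vehicle. Sox3 had 8.81 ± 3.24 per kilobase in NTG and 31.1 ± 4.12 in vehicle. The order differed in its lower middle. In NTG it went on with Cdh19 (383 ± 23.7), Gja1 (291 ± 18.2) and Sox2 (178 ± 16.4), whereas in vehicle it went on with Sox2 (301 ± 10.7), Gja1 (279 ± 39.2) and Cdh19 (223 ± 25.8), all per kilobase. Cdh19 and Sox2 thus stood in opposite order in the groups. Neighbours whose libraries overlapped were Erbb3 and Cdh19 in NTG, and Sox2 with Gja1 and Gja1 with Cdh19 in vehicle. With coding length in place of transcript length, Gja1 ranked 6 and Erbb3 ranked 8 in both groups.

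**Figure D4:**
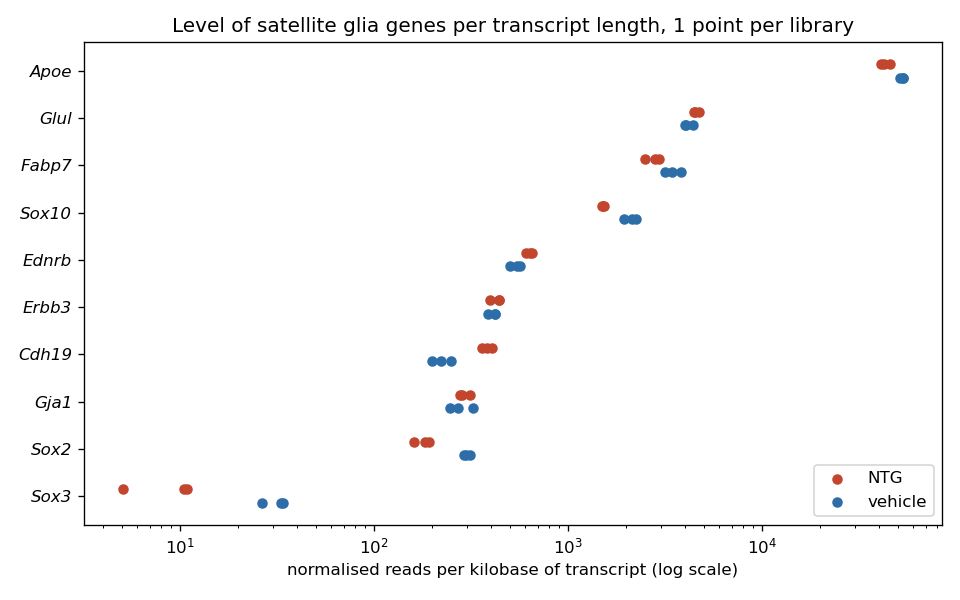
Level of each satellite glia gene per length (x axis, normalised reads per kilobase of transcript, log scale), with the 3 NTG libraries above the 3 vehicle libraries for each gene. Cdh19 lies above Sox2 in NTG and below it in vehicle, and Apoe leads in all libraries.

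Taking the members as a group, their summed level was 4195 to 4430 CPM, the reads of a gene scaled to a common library total, in NTG libraries and 4819 to 4985 CPM in vehicle libraries, a sum that is mostly Apoe. For other genes known from satellite glia the summed levels overlapped between the groups. Of 19 such genes, 2 rose (Ptprz1 and Sparcl1), 4 fell (Foxd3, Metrn, Bcan and Fasn) and 13 did not pass, with a median log2 fold change of -0.07 and a summed level of 4380 to 4507 CPM in NTG and 4208 to 4587 CPM in vehicle. After the trend was removed 1 rose (Sparcl1) and 1 fell (Metrn), with a median of -0.04. Metrn, which encodes the secreted factor meteorin, had 727 ± 11.7 normalised reads in NTG and 1038 ± 88.1 in vehicle (log2 fold change -0.51, limma adjusted p = 9.3e-05, and -0.28 with adjusted p = 0.0216 after removal). Bcan, a matrix proteoglycan gene, had 2548 ± 122 in NTG and 3174 ± 42.8 in vehicle (log2 fold change -0.32, limma adjusted p = 0.000413), and 0.00 with adjusted p = 0.98 after removal. Fasn, fatty acid synthase, had -0.28 (limma adjusted p = 0.00104), and -0.07 with adjusted p = 0.279 after removal. Kcnj10, the potassium channel Kir4.1 of satellite glia, was chosen after its values were seen and had a log2 fold change of 0.02 (limma adjusted p = 0.872). Over all 182 listed genes of these pathways, 152 were tested, and 17 rose (11.2%) and 27 fell (17.8%). Among all genes tested 12.3% were called higher and 13.5% lower. After removal 8 rose and 8 fell, some of which had not been called before, beside 3.47% and 5.5% of all genes.

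**Figure D5:**
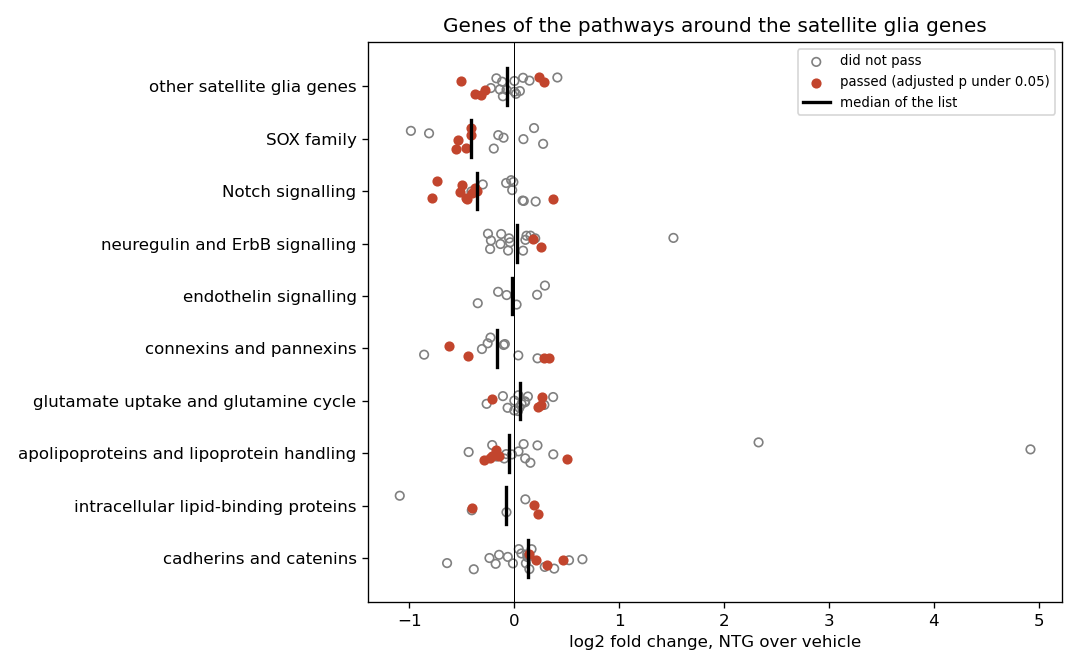
Log2 fold change (x axis, NTG over vehicle) of the tested genes in each list around the satellite glia genes, members left out; filled points passed at an adjusted p under 0.05 in limma across all genes, open points did not, and bars are list medians. The SOX and Notch medians lie lowest (-0.41 and -0.36) and the cadherin median is 0.13.

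Markers of other cells that use some of these genes were measured beside them, and their calls too depended on the GC and length trend. Of 14 markers of myelinating Schwann cells, 3 rose and 3 fell (1 fell after removal), with a summed level of 14286 to 15998 CPM in NTG and 14862 to 16451 CPM in vehicle. Mbp, which encodes myelin basic protein, had a log2 fold change of -0.11 (limma adjusted p = 0.0391). Of 4 markers of non-myelinating Schwann cells, 2 rose and 1 fell (2 rose after removal), at 1450 to 1513 CPM in NTG and 1371 to 1429 CPM in vehicle. Scn7a, a sodium channel gene of these cells and of some neurons, had 10999 ± 440.1 normalised reads in NTG and 7450.0 ± 231 in vehicle (log2 fold change 0.56, limma adjusted p = 4.62e-07, and 0.26 with adjusted p = 8.09e-05 after removal). Its direction was that of Cdh19. Ngfr, the p75 receptor, had a log2 fold change of -0.30 (limma adjusted p = 0.000381), and -0.05 after removal.

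Of 10 macrophage markers, 3 fell (C1qa, C1qb and C1qc) and 7 did not pass, with 1 (C1qc) called lower after removal. Their summed level was 127 to 142 CPM in NTG and 156 to 172 CPM in vehicle, the direction of Apoe before removal. The markers did not move together. At an unadjusted p under 0.05 in limma 4 were lower and 1 was higher, and after removal 3 and 1. The higher 1 was Cx3cr1, at 0.42, and 0.40 after removal. Of 8 astrocyte markers 3 fell and 5 did not pass, at 264 to 298 CPM in NTG and 289 to 346 CPM in vehicle. After removal limma called 0 of these 8 (2 lower at an unadjusted p under 0.05). Of 7 oligodendrocyte markers 2 fell and 5 did not pass (1 fell after removal), at 241 to 264 CPM in NTG and 234 to 364 CPM in vehicle. Gfap, which satellite glia can also make, had -0.26 (limma adjusted p = 0.0414), and -0.10 with adjusted p = 0.594 after removal. All 13 sensory neuron markers of the labelled tissue were measured, and 4 rose and 5 fell (3 and 3 after removal), at 21642 to 22542 CPM in NTG and 22131 to 23323 CPM in vehicle. The melanocyte list, a lineage that uses Sox10 and Ednrb, had 2 of 5 genes tested, Tyrp1 at 0.45 and Pmel at -0.98 (after removal 0.29 and -0.88), at 9.51 to 11.3 CPM in NTG and 9.21 to 10.2 CPM in vehicle. Of 6 fibroblast markers 2 fell, before and after removal, at 1030.2 to 1205 CPM in NTG and 1233 to 1375 CPM in vehicle. Of 7 endothelial markers 1 rose and 1 fell, at 138 to 148 CPM in NTG and 128 to 155 CPM in vehicle, and after removal limma called 0 (2 higher at an unadjusted p under 0.05).

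Markers of tissue next to the ganglion were also counted. Of 9 skeletal muscle markers 6 fell in limma (3 in DESeq2, and 4 in limma after removal), at 4.37 to 4.72 CPM in NTG and 9.36 to 16.9 CPM in vehicle, with Tnnt3 at 0 in at least 1 library. Of 6 pituitary markers tested, 1 fell (Pomc), before and after removal, at 16.6 to 116 CPM in NTG and 76.7 to 189 CPM in vehicle. Of 4 choroid plexus markers tested, limma, edgeR and DESeq2 called 0 (0 at an unadjusted p under 0.05 in limma), at 8.29 to 31.0 CPM in NTG and 6.54 to 10.4 CPM in vehicle, the top value being NTG replicate 1. That value came from 1 of the 4 genes, which had 415 normalised reads there and 2.18 to 19.8 elsewhere, in the same library as the apolipoprotein genes above, whereas Clic6 had 97.4 there and 50.1 to 86.4 elsewhere. The part of these other cells in the members' values was not tested.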

How the data were processed

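Trigeminal ganglion RNA of WT mice was sequenced in 6 libraries, 3 NTG and 3 vehicle, grouped by their labels. RNA was poly-T enriched and made into strand-specific libraries, per the labels' protocols. FastQC, HISAT2 and GRCm38 are named in the submitters' processing notes, while for the counter, its strand setting and the annotation the sources used here give nothing. The authors deposited a normalised signal, which its values show to be gene counts divided by a size factor. In each library 100% of values were whole multiples of 1 read (tolerance 0.01), so whole read counts were recovered, on which edgeR called 4544 genes.

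Log2(value + 1) was fitted with limma-trend and robust empirical Bayes (limma 3.58.1, R 4.3.3), two-sided, for the 17475 genes that reached a value of 1 in 3 or more libraries. P-values were adjusted by Benjamini-Hochberg over all of these, with a threshold of 0.05. The labels do not tie libraries to separate animals, and p-values then reflect only how far these samples spread, which may be technical. GC content and length came from GENCODE M21 transcripts for 16327 genes (93.2%), and each library's smooth trend over both was removed with mgcv 1.9.3, leaving 16278 tested genes. Genes of like GC content lay within 1 percentage point. The smallest total of a gene was 24 reads. Scripts were checked on simulated data, drawn without a GC trend. There limma called 56% of genes changed 1.5-fold and 74% of genes changed 2-fold, and 2.26% of its calls were unchanged genes. A gene that did not pass may thus still differ.

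The members and gene lists were chosen with earlier results of these data known. Besides the members, the text names up to 3 genes with the smallest p per pathway list, the most abundant gene where none passed, and the 2 most abundant markers per marker list; other names were picked with their values known, or only stand in a count. Some genes that the rule allows are not reported here. Alternatives covered the pseudocount (0.5 and 5), filters, scaling, edgeR 4.0.16 and DESeq2 1.42.0 on the recovered reads, GC and length removal, the replicate block and each library left out. Within groups, chi-square over its degrees of freedom was 3.99 to 7.76 for pairs of libraries, beyond counting noise, and each was taken as 1 sample.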

Additional observations from a re-analysis of the deposited data

How the results depend on the processing

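Pseudocounts, filters, scalings, edgeR and DESeq2 kept the count of members past the threshold at 8 and each member's sign. Removal of the GC and length trend gave 4 members, and 4 with the replicate block as well. It lowered the count over all genes to 1461 (565 higher, 896 lower) against 4512 (2148 higher, 2364 lower), and the count of listed related genes to 16 against 44; with the block added, these were 1996 and 22. Scaling to the total gave 2357 genes higher and 2236 lower.

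Without each library in turn, all genes called ran from 2945 (without NTG replicate 2) to 4670.0, members from 6 to 8 and listed genes from 31 to 47. With the same omissions after GC and length removal, a combination added after seeing the data, members ran from 3 (without NTG replicate 1) to 4, and Ednrb stood at -0.0094 without vehicle replicate 3. Gja1, which did not pass, changed sign under removal. Among the other genes named by the rule, Bcan (0.0035), Nrg1 (-0.0486), Nr1h2 (0.079), the neurofilament gene Nefm (0.036) and the fibroblast gene Dcn (-0.0517) changed sign under removal, with and without the block. Foxd3 (0.104) and Slc17a7 (0.0359), named outside the rule and called lower before removal, changed sign under removal too. The cause of these shifts was not tested.

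The replicate block alone gave 5254 genes, 8 members and 53 listed genes. Same-numbered libraries did not deviate together (r = 0.00415, -0.0330 and -0.0250). These values show no shared deviation by number, but they cannot tell whether the samples were paired. Sox3, at 10 to 68 reads, is limited most by depth.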
